A study of Homo sapiens with 12 samples.

Results

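The proteasome genes described here were the 49 protein-coding genes whose symbol is PSMA to PSMG followed only by digits, together with POMP, out of 60504 features in the deposited table, of which 19664 are protein coding. By role they comprised 14 constitutive subunits of the core particle, 17 subunits of the regulatory cap, 5 immunoproteasome genes (PSMB8, PSMB9, PSMB10, PSME1 and PSME2), 8 assembly chaperones, and 5 further genes for tissue-specific core subunits and other regulators. PSMC3IP, whose name goes on after the digits, was left out. The cells were TKO, a derivative of KMS-11, a cell line from a human multiple myeloma, labelled as plasma cells with the genotype WHSC1(+/-), WHSC1 being another name of the histone methyltransferase gene NSD2. The 4 groups, each with 3 biological replicates, were TKO with no vector, and TKO carrying an expression vector for NSD2 (called WT), for NSD2 p.D1240A or for NSD2 p.F1295A. All 4 groups thus share the TKO genotype. Replicates are labelled biological, with no word on how far back the cultures were separate. In such bulk RNA, fewer cells of a type and less RNA per cell cannot be told apart. The TKO group carried no vector, so the presence of NSD2 and that of a vector cannot be told apart in comparisons with it, and the labels do not say whether a line is 1 clone. Polyadenylated RNA was sequenced, and the values are FPKM, a fragment count corrected for transcript length and for the size of the library, so levels can be set side by side between genes.

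The proteasome degrades proteins that carry ubiquitin chains. Its barrel-shaped core particle is built of stacked rings of alpha and beta subunits, and the beta subunits PSMB5, PSMB6 and PSMB7 hold the active sites. The cap that sits on the core has a base, with a ring of ATPases that unfold substrates, and a lid, which removes ubiquitin. Interferon induces the alternative active subunits PSMB8, PSMB9 and PSMB10, which replace their constitutive counterparts in the immunoproteasome, and the activator genes PSME1 and PSME2. When proteasome activity is low, the transcription factor NFE2L1 is freed by NGLY1 and DDI2 and raises the transcription of subunit genes. Plasma cells secrete large amounts of antibody, and myeloma is treated with inhibitors of PSMB5.

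NSD2 itself was listed at 59.3, 59 and 63.1 FPKM in the TKO libraries, at 190.4, 188.8 and 196.2 FPKM with the WT vector, at 244.0, 261.1 and 252.1 FPKM with D1240A and at 172.8, 162.4 and 160.5 FPKM with F1295A. Every vector library was thus above every TKO library, in the direction of the labels, and NSD2 mRNA differed between the vector lines too. Its log2 change was 0.39 ± 0.04 (SE) in D1240A against WT (adjusted p = 5.3e-05) and −0.22 ± 0.04 in F1295A against WT (adjusted p = 0.0138).

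All 9 plasma cell markers passed the filter on low values. Their summed level was 2352.3 to 2566.6 FPKM in TKO and 3847.6 to 5078.9 FPKM in the vector lines. JCHAIN alone averaged 3165.5 FPKM over the 12 libraries, so the sum mainly reflects that gene and not the markers as a group. Markers of B, T or NK, myeloid, stromal, epithelial and erythroid cells summed to 4.03 FPKM or less per list in every library, with CD22, NKG7, FCGR3A, COL1A2, COL3A1 and KRT19 at 0 in all libraries, and the erythroid list was higher in TKO (1.35 to 3.65 FPKM) than in the vector lines (at most 0.434 FPKM). The part of the plasma cell and erythroid markers, and of NSD2 level, in the results below was not tested. The sequencing depth is unknown. The library D1240A replicate 2 stands apart: its deposited values sum to 2475654 FPKM against 839272 to 897546 in the other 11 libraries, and ribosomal RNA makes up 51.4% of that sum against at most 0.995% elsewhere. After rescaling, the proteasome genes in that library differed from the other D1240A libraries by a median of −0.07 on the log2 scale, from −0.30 for PSMA2 to 0.91 for PSMD5. The SD between replicates, pooled over the groups, had a median of 0.055 on the log2 scale over the 48 proteasome genes tested and 0.097 over all 14411 genes tested.

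The DNA before 5 of the genes is shown because PSMD3 and PSMD8 were called higher and PSMD6 and PSMA8 called lower in all 3 vector lines, and because PSMB9 is the inducible subunit gene that was lower. Promoters were taken from RefSeq (GRCh38.p14), which gave 43 of the 49 genes, all but PSMA7, PSMB1, PSMB6, PSMB7, PSMD4 and PSMG3. Each window is the longest stretch of the 250 bases before the RefSeq start that no exon of GENCODE release 29 covers, written along the gene's own strand. Capitals mark matches, on either strand, to 4 motifs: the antioxidant response element core (TGACNNNGC), bound by NFE2L1 and NFE2L2, the CCAAT box (CCAAT), the interferon-stimulated response element core and the gamma-activated site (TTCNNNGAA). The windows lie at chr17:39980557-39980796 for PSMD3 (plus strand), chr19:38374321-38374535 for PSMD8 (plus), chr3:64023561-64023744 for PSMD6 (minus), chr18:26133619-26133851 for PSMA8 (plus) and chr6:32853979-32854147 for PSMB9 (plus). Those of PSMD6 and PSMB9 lie before the RefSeq start but inside the GENCODE 29 span of the gene. These spans are chr3:64010549-64024010 for PSMD6 and chr6:32844136-32859585 for PSMB9.
PSMD3: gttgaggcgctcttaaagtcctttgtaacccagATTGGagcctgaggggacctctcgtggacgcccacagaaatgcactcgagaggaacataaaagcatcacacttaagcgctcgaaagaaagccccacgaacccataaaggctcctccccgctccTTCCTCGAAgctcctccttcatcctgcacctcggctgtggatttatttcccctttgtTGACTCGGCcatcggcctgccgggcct
PSMD8: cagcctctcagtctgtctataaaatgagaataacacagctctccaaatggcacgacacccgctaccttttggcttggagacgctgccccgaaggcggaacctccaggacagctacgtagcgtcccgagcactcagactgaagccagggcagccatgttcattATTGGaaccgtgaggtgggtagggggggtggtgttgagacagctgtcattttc
PSMD6: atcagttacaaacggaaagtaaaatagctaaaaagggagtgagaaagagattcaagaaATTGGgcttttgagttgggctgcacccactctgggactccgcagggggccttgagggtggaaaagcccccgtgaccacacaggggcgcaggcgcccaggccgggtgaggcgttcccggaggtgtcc
PSMA8: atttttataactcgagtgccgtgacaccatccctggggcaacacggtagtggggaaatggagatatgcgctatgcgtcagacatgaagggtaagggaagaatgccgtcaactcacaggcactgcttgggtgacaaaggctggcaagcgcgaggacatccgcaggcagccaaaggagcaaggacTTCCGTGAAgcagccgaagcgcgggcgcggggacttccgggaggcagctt
PSMB9: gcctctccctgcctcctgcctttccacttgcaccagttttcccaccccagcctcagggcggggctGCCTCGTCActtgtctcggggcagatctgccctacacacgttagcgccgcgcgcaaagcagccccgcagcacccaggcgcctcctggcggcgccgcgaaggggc

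PSMD3, which was higher, holds a CCAAT box, a gamma-activated site and an antioxidant response element core, and PSMD8, also higher, holds a CCAAT box, as does PSMD6, which was lower. Over the full 250 bases, the antioxidant response element core occurred in 11 of 43 proteasome promoters (25.6%) and in 11% of all 27305 promoters of the same length. It was found in 1 of 10 core promoters, 2 of 16 cap promoters, 3 of 5 immunoproteasome promoters (PSMB9, PSME1 and PSME2) and 4 of 7 promoters of assembly chaperones (PSMD5, PSMD9, PSMG1 and PSMG2). The CCAAT box occurred in 18 of 43 (41.9%) against 33% of all promoters. The interferon-stimulated response element core occurred in 5 of 43 (11.6%; PSMA4, PSMB10, PSMB4, PSME2 and PSMG4) against 3.07%, and the gamma-activated site in 5 of 43 (11.6%; PSMA2, PSMA8, PSMC4, PSMD3 and PSME3) against 6.78%. In the windows shown, no matches to different motifs share a base. These are matches of letters, and no binding was measured.

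Of the 49 genes, 48 passed the filter on low values, and PSMB11, the beta subunit of the thymus proteasome, was listed at 0 in all 12 libraries. The 48 tested genes had mean levels from 15.4 FPKM (PSMD5) to 1259.5 FPKM (PSMB4), a range of 82-fold, with a median of 118.3 FPKM against 9.32 FPKM over all tested genes. Subunits that occupy equal numbers of places in the core differed widely in mRNA. Among the beta subunits PSMB4, a structural subunit, stood at 1259.5 FPKM and PSMB5, the site of the chymotrypsin-like activity, at 46.4 FPKM, a 27.1-fold difference. The alpha subunits ranged 4.14-fold, from PSMA3 (123.3 FPKM) to PSMA7 (510.4 FPKM), and the cap 9.01-fold, from PSMD6 (55.0 FPKM) to PSMD4 (495.3 FPKM), a receptor for ubiquitin chains. Assembly chaperones were lower, with a median of 51.3 FPKM against 201.9 FPKM for the core, 144.7 FPKM for the cap and 113.3 FPKM for the immunoproteasome genes.

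The summed level of the 14 core genes was 4171.9 ± 131.4 FPKM in TKO (SD, n = 3), 4289.7 ± 78.9 in WT, 4207.0 ± 259.3 in D1240A and 4383.3 ± 88.1 in F1295A. For the 17 cap genes it was 2784.8 ± 54.1 in TKO, 2797.3 ± 18.7 in WT, 2744.5 ± 83.2 in D1240A and 2859.5 ± 40.4 in F1295A. The F1295A libraries were all above TKO in the core sum (lowest 4297.9 against 4287.9 FPKM), and each other vector line overlapped with TKO in both sums. The 8 assembly chaperones had a lower sum in the vector lines: it was 422.5, 443.2 and 439.7 FPKM in the TKO libraries and lay between 366.6 and 413.4 FPKM in the 9 vector libraries, with no overlap. That fall mainly reflects PSMD10 (mean 74.1 FPKM in TKO and 51.6 in WT) and PSMG1 (98.9 and 76.6), not the chaperones as a group. POMP, PSMG3 and PSMG4 had higher means in WT than in TKO.

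**Figure D1:**
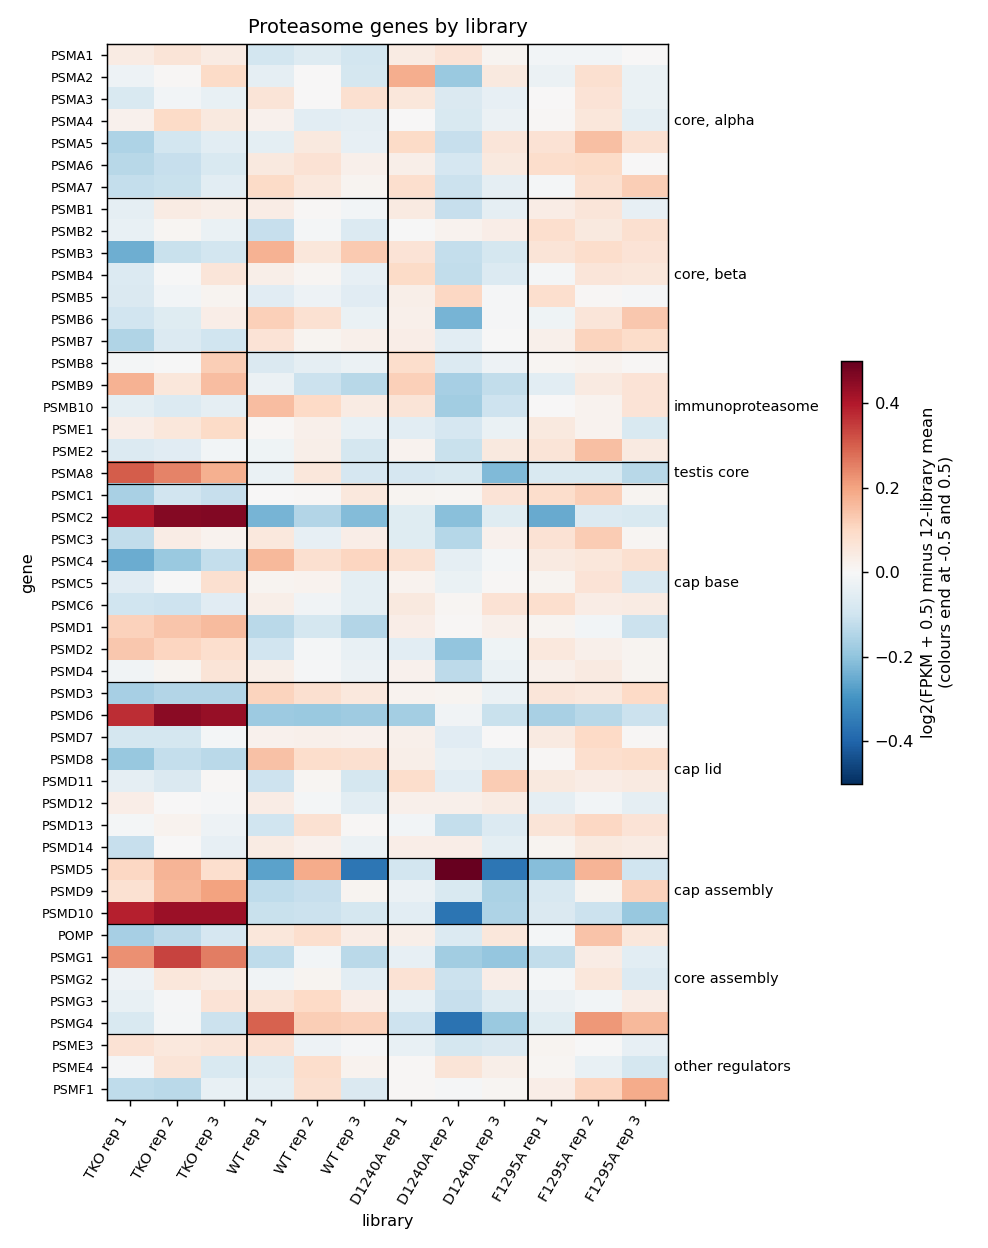
Level of each of the 48 tested proteasome genes (rows, grouped by role) in each of the 12 libraries (columns), as log2(FPKM + 0.5) minus the gene's mean over the 12 libraries. PSMC2, PSMD6, PSMD10 and PSMG1 are red in the 3 TKO libraries and blue or pale in the others, and PSMD5 is high in D1240A replicate 2 (24.4 FPKM).

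Against TKO, proteasome genes moved in both directions and by small amounts. With the WT vector 11 of 48 were called higher and 10 lower, 43.8% in all, where 49.7% of all tested genes were called (25.8% higher and 23.8% lower). With D1240A 8 were called higher and 11 lower (39.6%), against 44.5% of all tested genes (23.3% higher, 21.1% lower). With F1295A 15 were called higher and 6 lower (43.8%), against 45.7% of all tested genes (23.9% higher, 21.8% lower). Calls were made where limma gave an adjusted p below 0.05 over all tested genes. These shares were somewhat below those of all tested genes, and below the 58.9%, 53.1% and 54.5% called in WT, D1240A and F1295A among the 5499 tested genes within the same range of mean level. The typical change was smaller than that of other genes: the median absolute log2 change was 0.09 in WT, 0.09 in D1240A and 0.10 in F1295A, against 0.23, 0.20 and 0.20 over all tested genes and 0.17, 0.15 and 0.15 over those 5499 genes. In each of the 3 lines, 3 of 48 proteasome genes changed by at least 0.5 on the log2 scale (6.25%), the cap genes PSMC2 and PSMD6 and the chaperone PSMD10, all lower, against 22.4%, 19.1% and 20.4% of all tested genes and 11.9%, 9.44% and 10.8% of the genes in that range of level.

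By role, the WT vector gave 4 higher and 1 lower of 14 core genes, 4 and 4 of 17 cap genes, 1 and 1 of 5 immunoproteasome genes and 2 and 3 of 8 chaperones. D1240A gave 2 and 0 core genes, 5 and 4 cap genes, 0 and 2 immunoproteasome genes and 1 and 3 chaperones. F1295A gave 6 and 0, 6 and 3, 1 and 0, and 1 and 2 in the same order. The shares called in WT, D1240A and F1295A were 35.7%, 14.3% and 42.9% of core genes and 47.1%, 52.9% and 52.9% of cap genes. They were 40%, 40% and 20% of immunoproteasome genes and 62.5%, 50% and 37.5% of chaperones. Over all tested genes the shares were 49.7%, 44.5% and 45.7%.

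With all 12 libraries kept, the counts of higher genes depended on the scaling. Without rescaling, WT had 1 higher and 7 lower, D1240A had 0 and 11, and F1295A had 0 and 6. All tested genes (14450 here) gave 2609 higher and 2688 lower calls for WT, 1589 against 3807 for D1240A, and 2138 against 2672 for F1295A. With D1240A replicate 2 also left out, WT had 11 higher and 13 lower, D1240A had 8 and 13, and F1295A had 11 and 14. The 14370 genes tested there gave 3551 higher against 4040 lower (WT), 2638 against 3497 (D1240A) and 2981 against 4187 (F1295A). Lower calls thus outnumbered higher ones over all tested genes too. On the rescaled values, the number higher in D1240A was 5 without TKO replicate 1, D1240A replicate 1 or D1240A replicate 3. The 3 comparisons share the TKO libraries. POMP, PSMA6, PSMB7, PSMC1, PSMC4, PSMD3 and PSMD8 (7 genes) were called higher in all 3, and PSMA8, PSMC2, PSMD1, PSMD6, PSMD10 and PSMG1 (6 genes) lower in all 3. 19 genes were called in none of the 3. Over all tested genes, the shares called in all 3 or in none were not counted. The 7, 6 and 19 genes thus set no contrast with other genes.

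**Figure D2:**
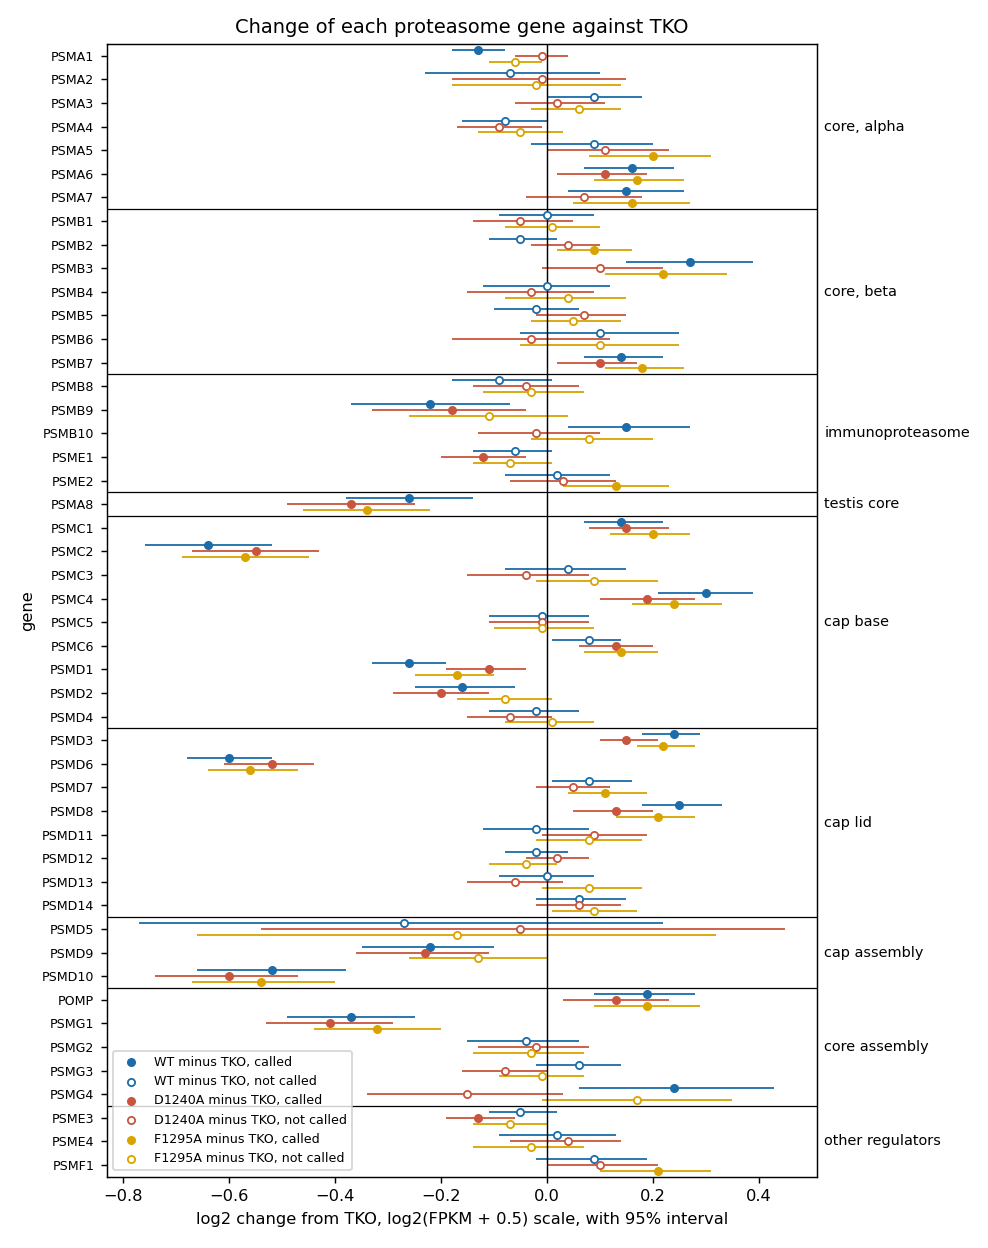
Log2 change of each tested proteasome gene in the WT, D1240A and F1295A lines against TKO (points) with its 95% interval (bars), grouped by role; filled points were called. Most points lie within 0.25 of 0, and PSMC2, PSMD6 and PSMD10 lie near −0.5 or below in all 3 lines. Without rescaling, with all 12 libraries kept, POMP, PSMA6, PSMB7, PSMC6 and PSMD8 had changes of −0.05 to −0.02 in D1240A. With D1240A replicate 2 also left out, the D1240A calls of POMP, PSMA6 and PSMC6 were kept and those of PSMB7 and PSMD8 lost.

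Among the 7 alpha subunits, which form the outer rings and the gate of the core, PSMA6 was higher in all 3 lines. Its level was 153.1, 155.9 and 160.3 FPKM in TKO, 174.5, 177.7 and 171.7 FPKM in WT, 172.3, 159.4 and 174.7 FPKM in D1240A and 179.2, 180.6 and 169.2 FPKM in F1295A. WT and F1295A libraries all lay above TKO, while D1240A replicate 2 lay within the TKO range. The log2 change was 0.16 ± 0.039 (SE) in WT (adjusted p = 0.00504), 0.11 ± 0.039 in D1240A (adjusted p = 0.0397; −0.04 without rescaling) and 0.17 ± 0.039 in F1295A (adjusted p = 0.00335). The D1240A call was lost on leaving out TKO replicate 1 or 2, WT replicate 1 or D1240A replicate 1 or 3 (adjusted p up to 0.14). PSMA7 rose by 0.15 in WT and 0.16 in F1295A, calls that were lost without TKO replicate 1 or 2 and without WT replicate 1 or 2 (adjusted p up to 0.0914) or F1295A replicate 2 or 3 (up to 0.0786). PSMA5 was higher in F1295A only among the calls, by 0.20 ± 0.052 (adjusted p = 0.0083).

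PSMA1 was lower with the WT vector, with 167.6, 170.3 and 167.4 FPKM in TKO and 152.8, 155.7 and 152.6 FPKM in WT. Its D1240A libraries, at 167.5, 170.7 and 164.4 FPKM, were at the TKO level and F1295A lay between, at 161.0, 161.1 and 163.1 FPKM. The log2 change was −0.13 ± 0.023 in WT against TKO (adjusted p = 0.0006) and 0.12 ± 0.023 in D1240A against WT (adjusted p = 0.00382). PSMA2, PSMA3 and PSMA4 were not called in any comparison, with log2 changes against TKO from −0.09 (PSMA4 in D1240A) to 0.09 (PSMA3 in WT).

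Of the 7 constitutive beta subunits, PSMB3, PSMB7 and PSMB2 were called higher somewhere and none was called lower against TKO. PSMB3, a structural subunit, was at 281.6, 309.4 and 313.0 FPKM in TKO, against 376.6, 347.7 and 365.4 FPKM in WT, with 350.0, 307.4 and 314.5 FPKM in D1240A and 349.6, 354.4 and 350.5 FPKM in F1295A. Its WT and F1295A libraries did not overlap those of TKO, and 1 of the D1240A libraries did. The log2 change was 0.27 ± 0.053 in WT (adjusted p = 0.00119) and 0.22 ± 0.053 in F1295A (adjusted p = 0.00454). PSMB7, which carries the trypsin-like active site, rose by 0.14 in WT, 0.10 in D1240A and 0.18 in F1295A, and its D1240A value was −0.05 without rescaling. That D1240A call (adjusted p = 0.0344) was lost without TKO replicate 1 or 3 or D1240A replicate 1 or 3 (up to 0.13). PSMB2 was higher in F1295A by 0.09 against TKO, a call lost without TKO replicate 1 or 3 or F1295A replicate 1 or 3 (adjusted p up to 0.0949). PSMB1, PSMB4, PSMB5 and PSMB6 were not called in any comparison. PSMB5, the target of proteasome inhibitors, stood at 44.1, 45.9 and 46.8 FPKM in TKO and between 44.6 and 49.9 FPKM in the vector libraries, and its log2 change in WT was −0.02 (95% interval −0.10 to 0.06).

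In the cap base, PSMC4, an ATPase, had the largest positive change of the 48 genes. It was listed at 123.4, 129.0 and 135.0 FPKM in TKO, 164.3, 155.2 and 158.3 FPKM in WT, 154.8, 142.2 and 145.8 FPKM in D1240A and 151.3, 152.6 and 155.0 FPKM in F1295A. All 9 vector libraries were above all 3 TKO libraries. On the log2 scale PSMC4 rose by 0.30 ± 0.040 in WT (adjusted p = 6.2e-05), 0.19 ± 0.040 in D1240A (adjusted p = 0.00219) and 0.24 ± 0.040 in F1295A (adjusted p = 0.000372). PSMC1 rose by 0.14, 0.15 and 0.20 and PSMC6 by 0.13 in D1240A (−0.02 without rescaling) and 0.14 in F1295A.

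PSMC2, another ATPase of the same ring, moved the other way. It lies at chr7:103344254-103369395 and was listed at 105.6, 110.1 and 110.2 FPKM in TKO, 68.0, 72.1 and 68.7 FPKM in WT, 76.7, 69.1 and 76.6 FPKM in D1240A and 67.0, 76.3 and 75.7 FPKM in F1295A. From the fitted log2 changes, the level was 64.2% of that in TKO in WT, 68.3% in D1240A and 67.2% in F1295A, and no library overlapped with TKO. PSMC2 had a log2 change of −0.64 ± 0.055 in WT (adjusted p = 1.6e-06), −0.55 ± 0.055 in D1240A (adjusted p = 7.7e-06) and −0.57 ± 0.055 in F1295A (adjusted p = 4.8e-06). PSMD1, a scaffold of the base, fell by 0.26 in WT, 0.11 in D1240A and 0.17 in F1295A, the D1240A call being lost without TKO replicate 3 (adjusted p = 0.0566). PSMD2, the other scaffold, fell by 0.16 in WT and 0.20 in D1240A. PSMC3, PSMC5 and PSMD4 were not called in any comparison, and PSMC5 was within 0.01 of TKO in all 3 lines (−0.11 to 0.08 in WT, 95% interval).

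In the cap lid, PSMD3, a scaffold subunit, was at 145.1, 147.3 and 147.3 FPKM in TKO, 176.1, 172.6 and 169.1 FPKM in WT, 165.2, 164.8 and 159.8 FPKM in D1240A and 169.9, 169.0 and 174.7 FPKM in F1295A. Its groups did not overlap with TKO. PSMD3 thus had a log2 change of 0.24 ± 0.026 in WT (adjusted p = 1.4e-05), 0.15 ± 0.026 in D1240A (adjusted p = 0.000477) and 0.22 ± 0.026 in F1295A (adjusted p = 2.4e-05). PSMD8 rose by 0.25, 0.13 (−0.02 without rescaling) and 0.21, from 192.4, 201.8 and 199.4 FPKM in TKO to 242.9, 233.0 and 231.9 FPKM in WT. PSMD7, which pairs with the deubiquitinase PSMD14, rose by 0.11 in F1295A, a call lost without TKO replicate 1 or 2 or F1295A replicate 2 (adjusted p up to 0.073).

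PSMD6, a further scaffold of the lid at chr3:64010549-64024010, had the smallest adjusted p of the 48 genes. It was at 70.1, 74.2 and 73.3 FPKM in TKO, 47.7, 47.5 and 47.8 FPKM in WT, 48.0, 53.4 and 50 FPKM in D1240A and 48.3, 49.1 and 50.2 FPKM in F1295A. The vector lines thus lay close together, at 66% to 69.7% of the TKO level by the fitted log2 changes. PSMD6 had a log2 change of −0.60 ± 0.039 in WT (adjusted p = 1.5e-07), −0.52 ± 0.039 in D1240A (adjusted p = 6.8e-07) and −0.56 ± 0.039 in F1295A (adjusted p = 3.5e-07). PSMD11, PSMD12, PSMD13 and PSMD14 were not called in any comparison.

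Of the 8 assembly chaperones, which build core and cap but are not part of the finished particle, PSMD10 and PSMG1 were lower in all 3 lines and POMP was higher. PSMD10 (gankyrin), a chaperone of the cap ATPases at chrX:108084207-108091618, was at 72.8, 74.8 and 74.7 FPKM in TKO, 51.3, 51.4 and 52.2 FPKM in WT, 53.5, 43.0 and 49.8 FPKM in D1240A and 52.8, 51.4 and 48.6 FPKM in F1295A. No vector library reached the TKO range. PSMD10 had a log2 change of −0.52 ± 0.063 in WT (adjusted p = 3.2e-05), −0.60 ± 0.063 in D1240A (adjusted p = 1.2e-05) and −0.54 ± 0.063 in F1295A (adjusted p = 2.7e-05). PSMG1, which helps to assemble the alpha ring, was at 95.6, 103.4 and 97.6 FPKM in TKO and between 71.3 and 83.7 FPKM in the vector libraries, and fell by 0.37, 0.41 and 0.32. PSMD9 fell by 0.22 in WT and 0.23 in D1240A.

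POMP, the chaperone that helps the core mature, was at 61.8, 63.4 and 65.6 FPKM in TKO and between 66.2 and 76.7 FPKM in the vector libraries. Its log2 change was 0.19 in WT, 0.13 in D1240A (−0.02 without rescaling) and 0.19 in F1295A, and the D1240A call (adjusted p = 0.0302) was lost without TKO replicate 1 or 2 or D1240A replicate 1 or 3 (up to 0.107). PSMG4 was higher in WT by 0.24, a call lost without TKO replicate 1 or 3 or WT replicate 1 (adjusted p up to 0.116). PSMG2 was not called in any comparison. PSMD5 was not called either, and its pooled SD of 0.324 on the log2 scale was the highest of the 48 genes, with 24.4 FPKM in D1240A replicate 2 against 11.6 to 17.2 FPKM in the other libraries.

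**Figure D3:**
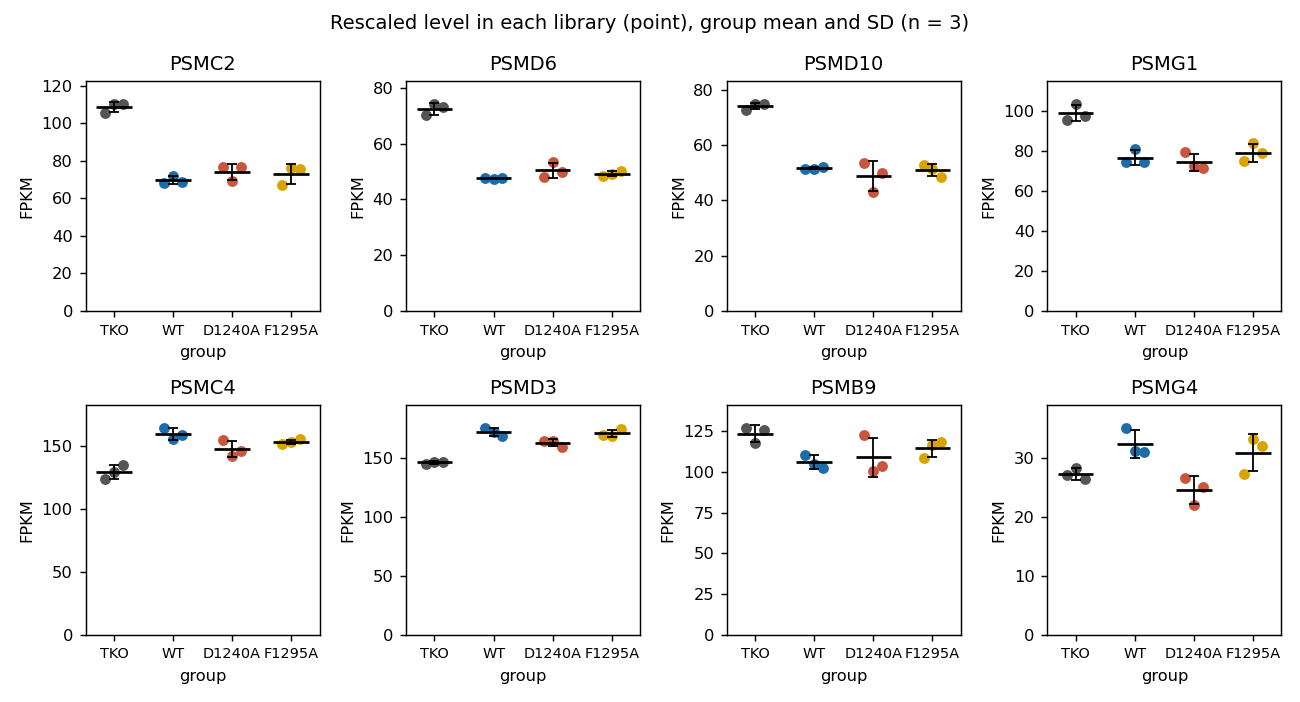
Rescaled FPKM of 8 proteasome genes in each library (points), with the mean and SD of each group (n = 3); every axis starts at 0. PSMC2, PSMD6, PSMD10 and PSMG1 are highest in TKO, PSMC4 and PSMD3 are lowest there, and PSMG4 is lowest in D1240A.

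Several of the genes that were lower lie among neighbours that were lower too. The median log2 change of the 50 tested genes nearest to PSMC2 on chromosome 7 was −0.40 in WT, −0.39 in D1240A and −0.42 in F1295A. With the median of the neighbours removed, PSMC2 was still called lower in all 3 lines, by −0.24, −0.16 and −0.16. For PSMD10, whose neighbours on the X chromosome changed by −0.27, −0.36 and −0.32, the values without the neighbours' median were −0.25, −0.24 and −0.22, all called. PSMG1, on chromosome 21, was no longer called, at −0.11, −0.09 and −0.04 (adjusted p of 0.164, 0.263 and 0.616). PSMD6 kept most of its change, at −0.45, −0.40 and −0.37, with neighbours at −0.15, −0.12 and −0.18.

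Among the genes that were higher, POMP was not called in any line with the neighbours' median removed (0.09, 0.04 and 0.12). PSMC4 stayed called at 0.18, 0.15 and 0.12, and PSMD3 at 0.24, 0.10 and 0.19. PSMC1 fell short of the call in WT (0.06) and D1240A (0.04). PSMD1 was called in WT alone (−0.20). PSMD8, PSMA6 and PSMC6 lost their D1240A calls (0.09, 0.06 and 0.07), and PSMA5 its F1295A call (0.09). PSMA1 lost its call in D1240A against WT (0.08). PSMD14, not called otherwise, was called lower in WT (−0.12), and PSMD7 in WT (0.14) and PSMB10 (0.19) and PSMD11 (0.17) in F1295A were called higher. Whether copy number or anything else that neighbouring genes share took part was not tested.

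**Figure D4:**
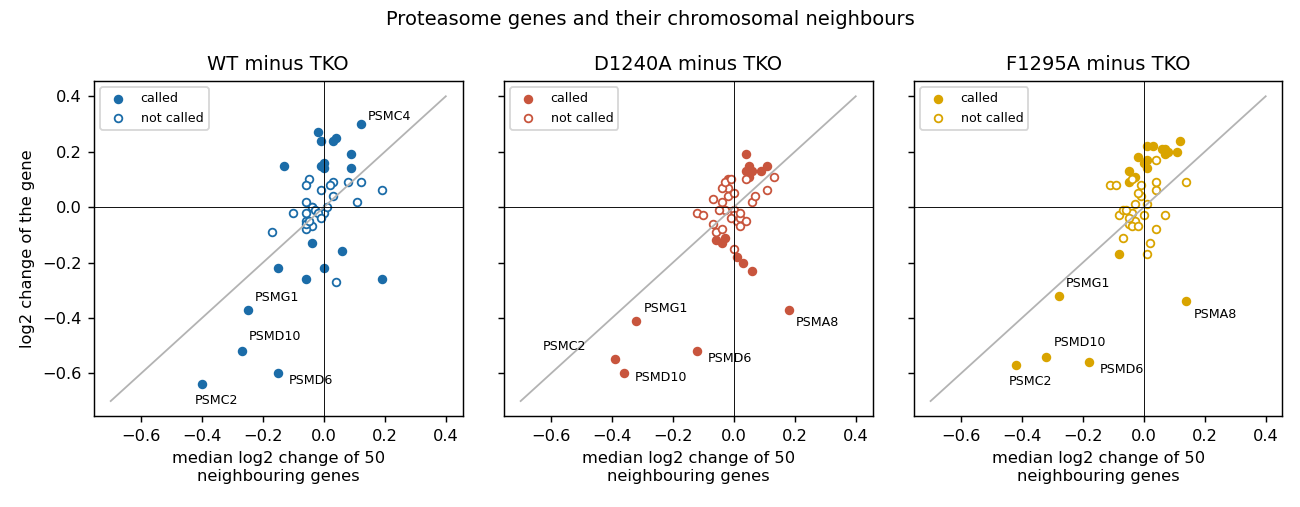
Log2 change of each tested proteasome gene against TKO (vertical axis) and the median log2 change of the 50 tested genes nearest to it on the chromosome (horizontal axis), one panel per vector line; the grey line marks equal values and filled points were called. PSMC2, PSMD10 and PSMG1 sit at the left, where the neighbours changed by −0.25 to −0.42, and PSMA8 lies far below the line.

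The immunoproteasome genes were expressed in every library, at 71.0 FPKM on average for PSMB8, 113.3 for PSMB9, 85.1 for PSMB10, 192.9 for PSME1 and 269.8 for PSME2. PSMB9, the inducible counterpart of PSMB6, was at 127.3, 117.6 and 125.7 FPKM in TKO, 110.7, 104.7 and 102.4 FPKM in WT, 122.8, 100.7 and 103.5 FPKM in D1240A and 108.7, 116.6 and 118.5 FPKM in F1295A. The WT libraries were all below TKO, and the other lines overlapped with it. The log2 change was −0.22 ± 0.068 in WT (adjusted p = 0.0176), −0.18 ± 0.068 in D1240A (adjusted p = 0.0444) and −0.11 ± 0.068 in F1295A (adjusted p = 0.221). The WT call was lost with the neighbours' median removed (−0.08) and without TKO replicate 1 or 3 or WT replicate 3 (adjusted p up to 0.0612). The D1240A call was lost without TKO replicate 1 or 3, WT replicate 2 or 3, D1240A replicate 2 or 3 or F1295A replicate 2 or 3 (up to 0.156).

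PSMB8, the counterpart of PSMB5, was not called in any comparison, at 70.5, 70.9 and 77.4 FPKM in TKO and between 67.5 and 75.5 FPKM in the vector libraries. PSMB10, the counterpart of PSMB7, was at 82.2, 81.0 and 82.3 FPKM in TKO and 94.6, 91.0 and 87.5 FPKM in WT, a change of 0.15 ± 0.052 (adjusted p = 0.03). That call was lost without any of the 3 TKO replicates or WT replicate 1 or 2 (up to 0.11), and the value was 0.28 with the neighbours' median removed. PSME1 was lower in D1240A by −0.12, a call lost without TKO replicate 3 (adjusted p = 0.0633) and with the neighbours' median removed (−0.06). PSME2 was higher in F1295A by 0.13, lost without TKO replicate 1 or 2 or F1295A replicate 1 or 2 (up to 0.133).

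The ratio of an inducible subunit to the subunit it replaces needs no rescaling between libraries. PSMB8 over PSMB5 was 1.60 ± 0.055 in TKO (SD, n = 3), 1.53 ± 0.030 in WT, 1.49 ± 0.118 in D1240A and 1.51 ± 0.051 in F1295A, so the inducible transcript was the more abundant in all 12 libraries. PSMB9 over PSMB6 was 1.26, 1.14 and 1.14 in TKO, while the WT libraries stood at 0.95, 0.92 and 0.97, those of D1240A at 1.12, 1.10 and 0.97 and those of F1295A at 1.03, 1.04 and 1.00. All vector libraries lay below TKO. PSMB10 over PSMB7 was 0.67 ± 0.024 in TKO and 0.68 ± 0.018 in WT, with 0.62 ± 0.036 in D1240A and 0.63 ± 0.017 in F1295A. PSME1 over PSME2, which join in 1 activator ring, was 0.77, 0.78 and 0.77 in TKO and between 0.65 and 0.74 in the vector libraries.

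**Figure D5:**
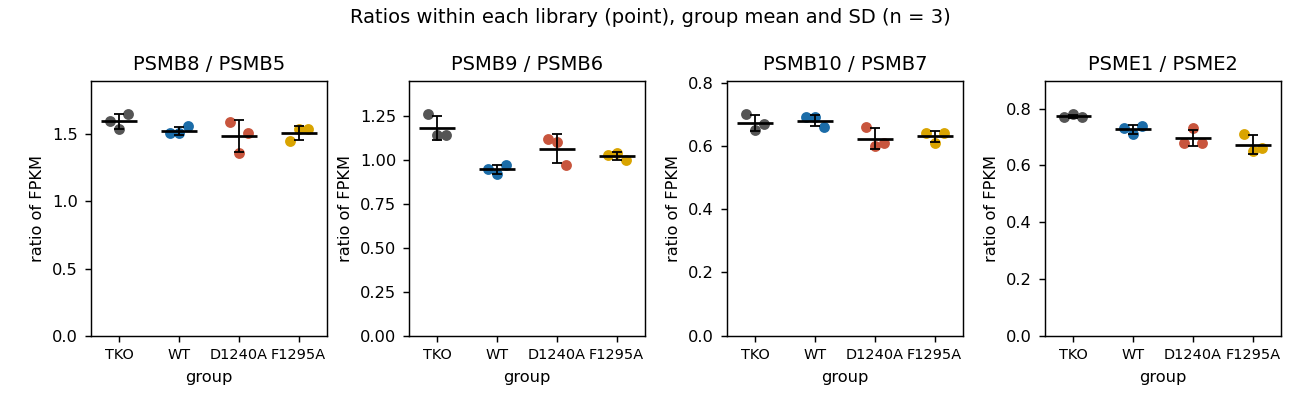
Ratio of FPKM within each library (points), with the mean and SD of each group (n = 3), for the inducible subunits PSMB8, PSMB9 and PSMB10 over the constitutive PSMB5, PSMB6 and PSMB7, and for the activator genes PSME1 over PSME2. PSMB9 over PSMB6 and PSME1 over PSME2 are highest in TKO, at means of 1.18 and 0.77.

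PSMA8, which replaces PSMA7 in the proteasome of the testis, was nonetheless listed at 21.2, 20.4 and 19.4 FPKM in TKO, 16.7, 17.8 and 16.1 FPKM in WT, 16.1, 16.2 and 14.6 FPKM in D1240A and 16.2, 16.2 and 15.5 FPKM in F1295A. None of its 50-base stretches occurs in transcripts of another gene in GENCODE release 29, PSMA7 included. Its change was −0.26 ± 0.054 in WT (adjusted p = 0.00178), −0.37 ± 0.054 in D1240A (adjusted p = 0.000181) and −0.34 ± 0.054 in F1295A (adjusted p = 0.000293). Its neighbours on chromosome 18 were higher, by 0.19, 0.18 and 0.14, and with their median removed the values were −0.45, −0.55 and −0.48. Of the other regulators, PSME3, a nuclear activator, fell by 0.13 in D1240A, a call lost with the neighbours' median removed (−0.09). PSMF1, which encodes an inhibitor of the core, rose by 0.21 ± 0.048 in F1295A (adjusted p = 0.00364). PSME4, an activator, was not called in any comparison.

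Between the vector lines fewer genes were called than against TKO, among proteasome genes and among all tested genes alike. In D1240A against WT, 2 of 48 were called higher (PSMA1 by 0.12 and PSMD1 by 0.15) and 5 lower, 14.6% in all, against 19.1% of all tested genes (8.2% higher and 10.9% lower). The 5 were PSMB3 (−0.17), PSMB10 (−0.17), PSMD8 (−0.12), PSMG3 (−0.14) and PSMG4 (−0.40). The count of lower genes fell to 1 without D1240A replicate 2, D1240A replicate 3 or WT replicate 1, to 2 without WT replicate 2 and to 3 without TKO replicate 2 or 3 or F1295A replicate 1 or 2. The PSMB3 call was lost without TKO replicate 2 or 3, WT replicate 1 or 3, D1240A replicate 2 or 3 or any F1295A replicate (adjusted p up to 0.159). The PSMB10 call was lost without any TKO replicate, WT replicate 1 or 2, D1240A replicate 2 or 3 or F1295A replicate 1 or 2 (up to 0.144). Those of PSMD8 and PSMG3 were lost without WT replicate 1 or 2 or D1240A replicate 2 or 3 (up to 0.106 and 0.0851).

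PSMG4, a partner of PSMG3 in the assembly of the alpha ring, was the exception that kept its call in every alternative. It was at 27.1, 28.4 and 26.5 FPKM in TKO, 35.2, 31.2 and 31.0 FPKM in WT, 26.6, 22.0 and 25.1 FPKM in D1240A and 27.4, 33.3 and 32.1 FPKM in F1295A. All D1240A libraries were below all WT and F1295A libraries and overlapped with TKO. The log2 change in D1240A against WT was −0.40 ± 0.083 (adjusted p = 0.00653), from −0.52 to −0.32 over the alternatives. Against F1295A it was −0.32 ± 0.083 (adjusted p = 0.0434), the 1 call of 48 in that comparison (2.08%), where 6.09% of all tested genes were called (3% higher and 3.09% lower). That call was lost without any of the 3 TKO replicates, WT replicate 2 or 3, D1240A replicate 2 or 3 or F1295A replicate 2 or 3 (up to 0.145), and with the neighbours' median removed (−0.29). Leaving out 1 library gave 0 to 4 genes called lower there, a count that moved with every library except F1295A replicate 1.

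In F1295A against WT, PSMB2 alone was called, higher by 0.14 ± 0.030 (adjusted p = 0.0393), 1 of 48 (2.08%) against 2.71% of all tested genes (0.895% higher and 1.81% lower). Its libraries were at 87.8, 94.4 and 90.7 FPKM in WT and 100.8, 98.4 and 100.5 FPKM in F1295A. The call was lost without any of the 3 TKO or F1295A replicates, WT replicate 1 or 3 or D1240A replicate 3 (adjusted p up to 0.152), and with the neighbours' median removed (0.12). For 45 of the 48 genes the 95% interval of the F1295A and WT difference lay within 0.25 of 0 on the log2 scale, the others being PSMB9, PSMD5 and PSMG4. The same held for 43 genes in D1240A against WT and for 44 in D1240A against F1295A. Intervals were not counted in this way over all tested genes.

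The genes that act with the proteasome were counted in lists. Of 20 tested partners (cap components outside the naming rule, deubiquitinases, shuttle factors and associated ligases), 6 were called higher and 6 lower in WT, 4 and 5 with D1240A and 4 and 6 with F1295A (60%, 45% and 50% called, against 49.7%, 44.5% and 45.7% of all tested genes), with median log2 changes of −0.03, −0.01 and −0.01 beside 0.00, 0.01 and 0.00 over all tested genes. ECPAS and UBQLN2 were higher and TXNL1, UBE3C, UBQLN4 and PITHD1 lower in all 3 lines. UCHL5 and RAD23B were higher in WT and D1240A, ZFAND5 in WT, and SEM1 and ZFAND2B in F1295A. FBXO7 was lower in WT and F1295A, and PAAF1 in D1240A. UBE3C, a ligase on chromosome 7 like PSMC2, fell by 0.30, 0.35 and 0.40, and was at 0.03, −0.05 and −0.05 with the neighbours' median removed. TXNL1 fell by 0.21, 0.15 and 0.17 and was at −0.02, 0.04 and 0.05 with it removed. UCHL5, higher by 0.10 in WT and 0.07 in D1240A, was at −0.03 and −0.09 with it removed, and at −0.08 in D1240A without rescaling, where RAD23B, higher by 0.09 in that line, was at −0.06.

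NUB1, which brings proteins tagged with NEDD8 to the proteasome, was at 30.6, 28.1 and 29 FPKM in TKO, 21.1, 20.6 and 21.4 FPKM in WT, 26.3, 27.8 and 27.5 FPKM in D1240A and 24.7, 24.1 and 22.3 FPKM in F1295A. Every vector library was below every TKO library, and the WT libraries were lowest. It fell by 0.46 in WT (adjusted p = 5.5e-06) and 0.30 in F1295A, while the D1240A value of −0.10 was not called and was 0.17 with the neighbours' median removed. D1240A was above WT by 0.36 (adjusted p = 0.000307) and above F1295A by 0.20. SEM1, a small lid subunit whose symbol the rule does not match, was higher in F1295A than in WT by 0.44 ± 0.094 (adjusted p = 0.0301).

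Of 17 tested genes of the NFE2L1 route, 5 were called higher and 4 lower in WT, 9 and 4 with D1240A and 7 and 4 with F1295A. That is 52.9%, 76.5% and 64.7% of the list, against 49.7%, 44.5% and 45.7% of all tested genes, so the WT share was near the background. NFE2L1 itself was at 44.6, 44.3 and 44.1 FPKM in TKO, 76.1, 74.6 and 78.5 FPKM in WT, 75.7, 79.0 and 79.1 FPKM in D1240A and 73.3, 70.7 and 73.6 FPKM in F1295A. The vector lines lay far above TKO with no overlap, a log2 change of 0.78 ± 0.030 in WT (adjusted p = 2.2e-09), 0.81 ± 0.030 in D1240A (2.7e-09) and 0.70 ± 0.030 in F1295A (6.3e-09). NGLY1, the deglycosylase that acts on NFE2L1 protein, rose by 0.25, 0.24 and 0.35, and SYVN1, a ligase that marks it for destruction, by 0.27, 0.21 and 0.29. DDI2, the protease that cuts it, was not called, at 0.05, 0.06 and 0.09. The related factor NFE2L2 rose by 0.12 in D1240A and 0.09 in F1295A, but stood at −0.14, −0.09 and −0.13 in WT, D1240A and F1295A with the neighbours' median removed, and at −0.03 in D1240A without rescaling. Its repressor KEAP1 fell by 0.36, 0.34 and 0.31. These are mRNA levels, and NFE2L1 is largely controlled as a protein.

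Genes known as targets of antioxidant response elements moved apart. Of 9 tested, 3 were called higher and 3 lower in WT, 3 and 1 with D1240A and 3 and 2 with F1295A. These were 66.7%, 44.4% and 55.6% of the list, beside 49.7%, 44.5% and 45.7% of all tested genes. SLC7A11, the cystine transporter, rose by 1.70, 1.56 and 1.49, while HMOX1, heme oxygenase, fell by 1.39, 0.98 and 1.28. NQO1, a quinone reductase, fell by 0.40 in WT and 0.23 in F1295A and was at 0.00 in D1240A. D1240A was above WT by 0.40 for NQO1 (adjusted p = 3.5e-05) and by 0.41 for HMOX1 (adjusted p = 0.000962). Of 20 ubiquitin and ubiquitin-transfer genes, WT had 7 called higher and 2 lower, D1240A 5 and 1, and F1295A 7 and 2. The shares of 45%, 30% and 45% stood beside 49.7%, 44.5% and 45.7% of all tested genes, near them in WT and F1295A. UBE4B, a chain-extending ligase, rose by 0.37, 0.43 and 0.34 and UBE2C, a mitotic enzyme, fell by 0.18, 0.19 and 0.18. UBE2D3 rose by 0.11, 0.11 and 0.18, but was at −0.09, −0.05 and −0.02 with the neighbours' median removed and at −0.04 in D1240A without rescaling.

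Because interferon induces the immunoproteasome genes, a list of regulators and receptors of interferon signalling was counted too. Whether they act on the immunoproteasome genes in these cells was not tested. Of 14 tested, 1 was called higher and 9 lower in WT, 2 and 6 with D1240A and 2 and 7 with F1295A, with medians of −0.35, −0.15 and −0.31. The shares called were 71.4%, 57.1% and 64.3%, against 49.7%, 44.5% and 45.7% of all tested genes. IRF1, the factor through which interferon induces PSMB8, PSMB9 and PSMB10, was at 37.6, 35.3 and 36.0 FPKM in TKO, 22.4, 23.8 and 22.1 FPKM in WT, 29.1, 30.7 and 27.3 FPKM in D1240A and 23.4, 22.9 and 23.5 FPKM in F1295A. D1240A lay between TKO and the other lines. IRF1 fell by 0.66 in WT (adjusted p = 3.0e-07), 0.32 in D1240A and 0.63 in F1295A, and D1240A was above WT by 0.34 (adjusted p = 0.000456). IFNGR2, a chain of the interferon gamma receptor, changed by −1.57, −1.35 and −1.48, and IFNAR2 by −0.61, −0.50 and −0.54, all called. CIITA, the master regulator of class II genes, fell by 1.12 in WT and 0.81 in F1295A, while its D1240A value of −0.12 was not called.

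IFNAR2 in D1240A was above WT by 0.11 (−0.01 without rescaling). NLRC5, which activates class I genes, fell by 0.29 in WT alone among the calls. Of 12 tested genes of class I loading, 1 was called higher and 6 lower in WT, 2 and 3 with D1240A and 2 and 4 with F1295A. The shares of 58.3%, 41.7% and 50% were near the 49.7%, 44.5% and 45.7% of all tested genes.

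TAP1, the peptide transporter gene that faces PSMB9 across the short stretch of DNA printed above, fell by 0.40 in WT (adjusted p = 2.4e-07), 0.12 in D1240A and 0.31 in F1295A. D1240A was above WT by 0.28 for TAP1 (adjusted p = 5.2e-05), where the PSMB9 value was 0.04 (adjusted p = 0.756). TAP2 fell by 0.37 in WT and 0.32 in D1240A. HLA-B fell by 0.31 in WT and 0.11 in F1295A, its D1240A value being 0.07, and CANX, a chaperone of class I chains, rose by 0.89, 0.86 and 1.01.

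Features named after a proteasome gene were counted separately. Of 32 pseudogene features, 4 had a mean of at least 0.5 FPKM, the highest being PSMC1P5 with 7.48 FPKM, which was listed at 0 in 6 of 12 libraries. Of 5 antisense features, 3 had at least 0.5 FPKM. PSMB8-AS1, the highest at 12.1 FPKM, overlaps PSMB8, PSMB9 and TAP1 at chr6:32844086-32846495 and fell by 0.60 in WT, 0.37 in D1240A and 0.45 in F1295A. PSMA3-AS1 fell by 0.61, 0.34 and 0.42, where PSMA3 was not called. No source used here gives the strand setting of the counting, so reads of such pairs may not have been told apart. Counting can also split reads between near-identical genes: PSMB10, PSMC1, PSMA1, PSMD9, PSMA2 and PSMA6 share more than 10% of their 50-base stretches with transcripts of another gene, up to 27.5% for PSMB10, and their values are less certain for that reason.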

How the data were processed

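Per the submitters' processing notes, reads were handled with Trimmomatic 0.36, FastQC 0.11.4, STAR 2.7.9a and RSEM 1.3.1 on GRCh38, and DESeq2 was used. No source used here gives the annotation release. The authors deposited 1 table of FPKM for 60504 features and 12 libraries. No 2 libraries were identical. Coordinates came from GENCODE release 29, which held 94.2% of the features.

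What follows was computed from those values. Structural RNA features (7089) were left out. Each library was then divided by a scaling factor, the mean log2 ratio to the average of the 12 libraries after dropping 30% of genes on each side, over genes averaging 1 FPKM or more, and all FPKM in the text are rescaled. The 14411 genes that reached 0.5 FPKM in 3 or more libraries were analysed on the log2(FPKM + 0.5) scale, which understates changes of low genes. The tool was limma 3.58.1 under R 4.3.3, with all 12 libraries in 1 model of group alone and its variance prior following the mean level. Adjusted p-values are Benjamini-Hochberg over all tested genes, in each of 6 comparisons. Calls are at an adjusted p under 0.05 with no minimum fold. Depth is unknown, so precision rests on the 3 replicates, and rescaling hides a change shared by all genes. The fit was tested on simulated data.

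The genes, lists, motifs and tests were chosen with earlier results of these data known. All genes matching the naming rule are named, and of the other lists NFE2L1, DDI2, NGLY1, NFE2L2, IRF1, NLRC5, TAP1 and TAP2, every partner called in any comparison, and the 3 genes of each list with the smallest adjusted p in WT against TKO. Some genes that this rule selects are counted in their lists but not reported here. Alternatives were other scaling, filters, pseudocounts and weights, structural RNAs kept, the median of 50 neighbouring genes (25 on each side) removed, a replicate block, fits of the compared groups alone, and each library left out in turn.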

Additional observations from a re-analysis of the deposited data

How the results depend on the processing

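The counts of proteasome genes called in the 6 comparisons were recomputed under 24 alternatives. Of the 70 calls of single genes, 18 kept direction and threshold in every alternative. Library weights, median-ratio scaling, keeping structural RNAs, a pseudocount of 0.1 or 1 and a stricter filter (1 FPKM) left every count within 1.5 times. Without rescaling, the median over all tested genes was −0.12 in D1240A against TKO and −0.10 in D1240A against WT. The numbers called higher then fell from 11 to 1 in WT, 8 to 0 in D1240A and 15 to 0 in F1295A against TKO, from 2 to 0 in D1240A against WT and from 1 to 0 in F1295A against WT, and the numbers called lower from 5 to 1 in D1240A against WT and from 1 to 0 in D1240A against F1295A. With D1240A replicate 2 also left out, an alternative added after seeing the data, the numbers against TKO were those given with the counts above (14 lower in F1295A), with 0 higher in F1295A against WT and 0 lower in D1240A against F1295A. With no filter, 5 were higher in D1240A against TKO, 3 lower in D1240A against WT, 0 higher in F1295A against WT and 0 lower in D1240A against F1295A. With neighbours' medians removed, 3 were higher and 7 lower in D1240A against TKO, 1 was higher in D1240A against WT, 0 higher in F1295A against WT and 0 lower in D1240A against F1295A. Fits of the compared groups alone gave 2 lower in D1240A against WT, 0 higher in F1295A against WT and 0 lower in D1240A against F1295A. The cause of these differences was not tested.

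Leaving out 1 library gave 8 to 13 higher and 9 to 10 lower in WT, 5 to 10 and 8 to 13 in D1240A and 11 to 15 and 6 to 7 in F1295A against TKO. It gave 2 to 3 higher and 1 to 6 lower in D1240A against WT, 0 to 1 higher in F1295A against WT and 0 to 4 lower in D1240A against F1295A. The count of 5 higher in D1240A against TKO came without TKO replicate 1, D1240A replicate 1 or D1240A replicate 3.

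Deviations from the group means correlated at most weakly between libraries with the same replicate number (from −0.054 to 0.085). Yet 9 of 12 libraries were closest to one with their own number, among the libraries of the other groups. With the replicate number as a block, 3 genes were lower in D1240A against WT, 0 higher in F1295A against WT and 0 lower in D1240A against F1295A, and the other counts stayed within 1.5 times.

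These values of the genes named here were among those that changed sign. Sign changes of values that were not called are not all listed. Without rescaling, in D1240A against TKO, POMP was at −0.02, PSMA6 at −0.04, PSMB7 at −0.05, PSMC6 at −0.02, PSMD8 at −0.02, NFE2L2 at −0.03, UBE2D3 at −0.04, UCHL5 at −0.08 and RAD23B at −0.06, and in D1240A against WT, IFNAR2 was at −0.01. With neighbours' medians removed, PSMD14 was at −0.12 and UBE3C at 0.03 in WT against TKO, UCHL5 at −0.03 in WT and −0.09 in D1240A, NFE2L2 at −0.14, −0.09 and −0.13 and UBE2D3 at −0.09, −0.05 and −0.02 in WT, D1240A and F1295A, TXNL1 at 0.04 in D1240A and 0.05 in F1295A, and NUB1 at 0.17 in D1240A.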
